A study of Rattus norvegicus with 4 samples.

Results

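The smooth muscle contractile genes are 10 genes that encode the actins, tropomyosins, myosin subunits, actin regulators and desmin of smooth muscle. They were chosen by name, and every probe set that the array annotation assigns to exactly 1 of these symbols was taken. This gave 19 probe sets for the 10 genes, out of 31042 probe sets and 14217 singly named genes in all. The arrays hold RNA of the ventral prostate lobe of male F344 rats, an inbred laboratory strain. Rats aged 6 weeks either received PhIP at 300 mg/kg or did not receive it, and all were killed after 2 days. PhIP is a heterocyclic amine that forms in cooked meat and, once activated in the body, makes DNA adducts. Each group comprised 4 rats, and each array carried a mixture of 2 of them, so that PhIP and control have 2 arrays each.

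Prostatic glands are wrapped in a sheath of smooth muscle, which contracts to expel the secretion and exchanges signals with the epithelium. In these cells, calcium activates a kinase that phosphorylates the myosin light chain, and myosin then pulls on actin filaments coated with tropomyosin and caldesmon. Many of the genes of this machinery are switched on by serum response factor, which binds a DNA element called the CArG box together with its coactivator myocardin.

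The promoter of Acta2, the gene of smooth muscle alpha-actin, is shown because it carries this element, and that of Des, the desmin gene, as one of the member promoters without a match. The windows run from 250 bases before the annotated start to 50 bases after it (RefSeq, GRCr8), at chr1:241172454-241172753 on the minus strand for Acta2 and at chr9:84299376-84299675 on the plus strand for Des. In both, that start is the outer end of the annotated gene. Capitals mark CArG boxes, searched for as 10 bases with the outer CC and GG kept and at most 1 G or C among the 6 central bases. The form is its own reverse complement, so 1 search covered both strands.
Acta2: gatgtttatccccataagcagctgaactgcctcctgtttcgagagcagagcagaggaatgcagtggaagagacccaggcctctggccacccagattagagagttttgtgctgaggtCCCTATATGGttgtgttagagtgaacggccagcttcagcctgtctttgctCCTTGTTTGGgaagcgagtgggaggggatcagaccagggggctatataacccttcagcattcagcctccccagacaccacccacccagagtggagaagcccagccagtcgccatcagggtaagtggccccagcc
Des: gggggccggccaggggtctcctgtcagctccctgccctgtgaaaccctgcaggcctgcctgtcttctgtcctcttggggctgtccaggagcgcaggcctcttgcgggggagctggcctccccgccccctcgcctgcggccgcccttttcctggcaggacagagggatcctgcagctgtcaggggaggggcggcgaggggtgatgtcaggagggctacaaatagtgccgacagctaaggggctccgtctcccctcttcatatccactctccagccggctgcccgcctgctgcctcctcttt

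The Acta2 window holds 2 such boxes, CCCTATATGG and CCTTGTTTGG, which begin 134 and 84 bases before the annotated start. Each has 1 G or C in its centre. Of the 7 genes with a window in the RefSeq table (Acta2, Actg2, Tpm1, Tpm2, Cnn1, Des and Smtn), Acta2 alone had a match. The Actg2 window surrounds a start 10340 bases inside the annotated gene, so the sequence before the outer end of Actg2 was not searched. The starts used for Smtn, Tpm1 and Tpm2 lie 11, 246 and 340 bases inside their genes. Among all 33469 promoter windows of this length, 9.42% held at least 1 match and 0.846% held more than 1. In GRCr8, Tpm1, Cnn1 and Tagln lie on chromosome 8, and the others on chromosomes 1 (Acta2), 3 (Myl9), 4 (Actg2), 5 (Tpm2), 9 (Des), 10 (Myh11) and 14 (Smtn).

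Across the whole array, median signals were 23.2 and 23.1 on PhIP arrays, and 25.5 and 27.4 on control arrays. The 3′ over 5′ signal ratio of Gapdh, which grows with RNA degradation, was 1.45 and 1.44 in PhIP, against 1.34 and 2.06 in control, control 2 standing apart. The same ratio for actin was higher on every array, at 3.93 and 3.49 in PhIP, against 4.18 and 5.71 in control. Both control arrays thus lay above both PhIP arrays in the actin ratio, and its effect on the results was not tested. The ventral lobe's secretory genes Pbsn, Sbp and Andpro were bright on all arrays, whereas Tgm4 and Msmb, also on the list, were dim (at most 48.8). Pbsn, which encodes probasin, had 4273 and 4643 in PhIP, against 4898 and 4399 in control. Of 4 tested genes of that list, Sbp and Andpro were higher in PhIP at an unadjusted limma p under 0.05 (0.25 ± 0.07 and 0.17 ± 0.05 on the log2 scale), and 0 without the eBayes trend. At that p and with the trend, 5.36% of all tested probe sets were higher. The 18 hybridization control probe sets, transcripts added in fixed amounts before hybridisation, averaged −0.23 on the log2 scale in PhIP relative to control.

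All 10 contractile genes had lower signals on both PhIP arrays than on both control arrays, each gene being represented by its brightest probe set. The PhIP mean was between 50.0% (Actg2) and 81.6% (Tpm1) of the control mean. The median log2 fold change of PhIP over control was −0.70, against −0.03 over all 18625 probe sets tested. None of the 10 passed an adjusted p of 0.05 (limma, Benjamini-Hochberg), which 5 probe sets of the whole array did (0.0268%). The number that passed was 8 without control 1 and 9 without control 2, where 2334 and 462 probe sets of the whole array passed, and 0 without either PhIP array. At an unadjusted p under 0.05, 9 of the 10 genes were lower, the exception being Smtn, and 0 were higher. Of all tested probe sets, 7.61% were lower and 5.36% higher at that p. The groups did not overlap, with PhIP lower, for 26.0% of all tested probe sets. Signals are MAS5 intensities on a linear scale, and fold changes were taken on the log2(signal + 10) scale, which understates the change of dim probe sets. In tissue RNA, fewer smooth muscle cells and less of these RNAs per cell cannot be told apart.

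**Figure D1:**
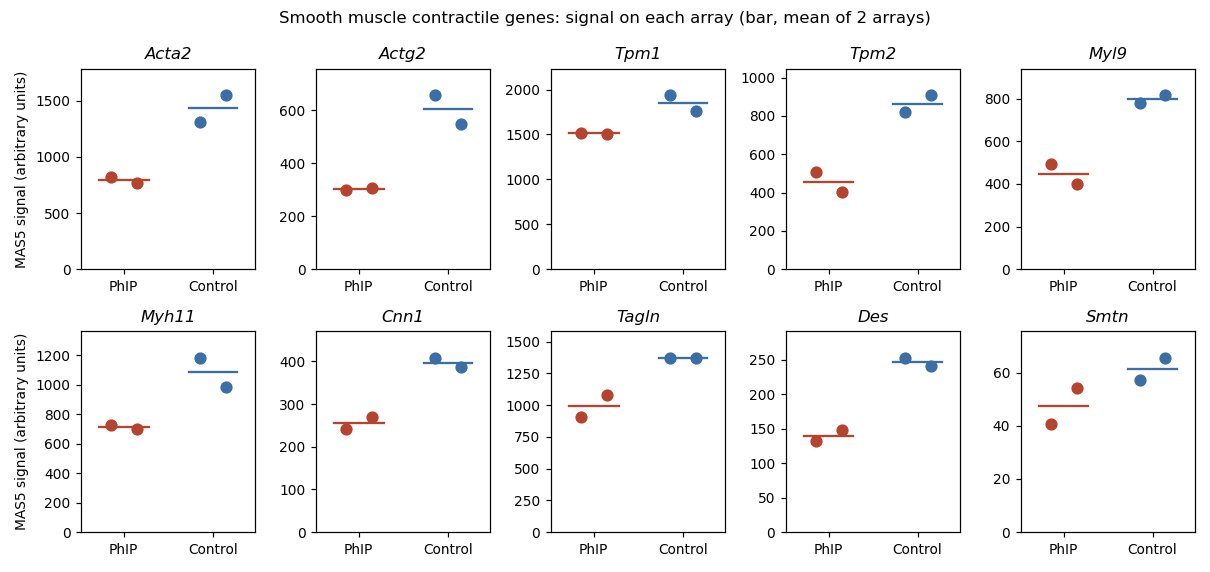
MAS5 signal (vertical axis, arbitrary units, from 0) of the 10 contractile genes, with PhIP arrays left and control arrays right; points are single arrays of 2 pooled rats and horizontal lines are group means. In every panel both PhIP points lie below both control points, with the widest relative gap for Actg2 (means of 302 and 603) and a narrow one for Smtn (47.5 and 61.4).

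The smooth muscle actins form the thin filaments on which myosin pulls. Acta2, the alpha form typical of vascular smooth muscle, had signals of 823 and 767 in PhIP, against 1315 and 1554 in control. The PhIP pools lay close together and well below the control pools, which differed from each other more. The log2 fold change was −0.84 ± 0.10 (SE, limma, 2 arrays a group), with an unadjusted p of 5.31e-05 and an adjusted p of 0.0517. Actg2, the gamma form of visceral smooth muscle, had signals of 297 and 306 in PhIP, against 658 and 548 in control. Its log2 fold change was −0.97 ± 0.12 (adjusted p = 0.0517), the largest among the 10 brightest probe sets. The order of the control pools differed between the paralogues, control 2 being the higher for Acta2 and the lower for Actg2. Actin coding sequences are nearly identical, and whether these probe sets separate the paralogues was not tested. Another 5 probe sets carry both Acta2 and Actc1, the cardiac actin gene, and were left out. Their signals were low and did not share a direction. Of these, 1370856_at had 30.9 and 22.1 in PhIP, against 40.4 and 44.5 in control. Both PhIP arrays were higher for 1374353_x_at (10.3 and 7.2, against 2.4 and 2.4 in control) and for 1381861_x_at (6.5 and 4.5, against 2.2 and 0.4 in control). The groups overlapped for 1374352_at and 1385797_at.

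Tropomyosins lie along the actin filament and govern access of myosin to it. Tpm2, beta-tropomyosin, had signals of 509 and 405 in PhIP, against 819 and 911 in control. Its log2 fold change was −0.91 ± 0.13 (limma adjusted p = 0.0534), and the PhIP pools stood further apart than the control pools. A dim second probe set of Tpm2, 1392976_at, was not tested and had 7.1 and 2.2 in PhIP, against 11.3 and 18.3 in control. Tpm1, alpha-tropomyosin, is spliced into smooth muscle, striated muscle and non-muscle forms, and 7 probe sets carry its symbol. The brightest, 1370287_a_at, had 1514 and 1508 in PhIP, against 1942 and 1761 in control (log2 fold change −0.29 ± 0.08, limma unadjusted p = 0.00755, adjusted p = 0.219). This was the smallest difference among the 10 genes, yet still without overlap. Its unadjusted p was above 0.05 with scaling to the hybridization controls (−0.06, limma unadjusted p = 0.655), with median-centred arrays (−0.15, limma unadjusted p = 0.147) and without the eBayes trend (limma unadjusted p = 0.0812). Leaving out PhIP 1 or PhIP 2 gave a limma unadjusted p of 0.0624 or 0.0667. With the mean of all 7 probe sets, Tpm1 stood at −0.45 (limma unadjusted p = 0.0202).

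The other Tpm1 probe sets did not behave alike. Both 1368724_a_at and 1371241_x_at were far brighter on control 2 than elsewhere. Signals of 1368724_a_at were 47.6 and 49.5 in PhIP, against 60.2 and 183 in control, with a log2 fold change of −0.99 ± 0.41. For 1371241_x_at the signals were 15.0 and 13.0 in PhIP, against 33.6 and 110 in control, and the log2 fold change was −1.59 ± 0.42 (limma unadjusted p = 0.00604). Without control 2 these log2 fold changes were −0.26 and −0.86. The probe set 1371241_x_at was bright enough to test only through its control signals, which limits the reading of its p. Of 19 measured skeletal muscle genes, 16 were also brightest on control 2, and 13 of these exceeded the next brightest array more than 1.5 times. Some of the 13 were dim, such as Ttn at 16.9, Pvalb at 19.0 and Casq1 at 23.1 on control 2. That array had the highest median signal (27.4), and the share of all probe sets brightest on it was not computed. The count therefore cannot be read as particular to skeletal muscle genes. Acta1, Tnnc2 and Myh2 were brightest on control 2 by less, and Myh1, Neb and Pygm were brightest on control 1. Myl1, a fast skeletal myosin light chain, had 4.5 and 9.1 in PhIP, against 5.2 and 306 in control. The muscle creatine kinase gene Ckm had 16.1 and 20.8 in PhIP, against 22.6 and 93.9 in control. Myl1 and Ckm were chosen after their values were seen, among those with a wide gap. In contrast, 1370288_a_at was dimmest on control 2, with 386 and 370 in PhIP, against 439 and 230 in control. Its log2 fold change of 0.24 ± 0.25 turned to −0.21 without control 2. The probe set 1395794_at stood at −0.25 ± 0.15, and the remaining Tpm1 probe sets, 1370513_at and 1371240_at, were too dim to test (at most 9.3).

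**Figure D2:**
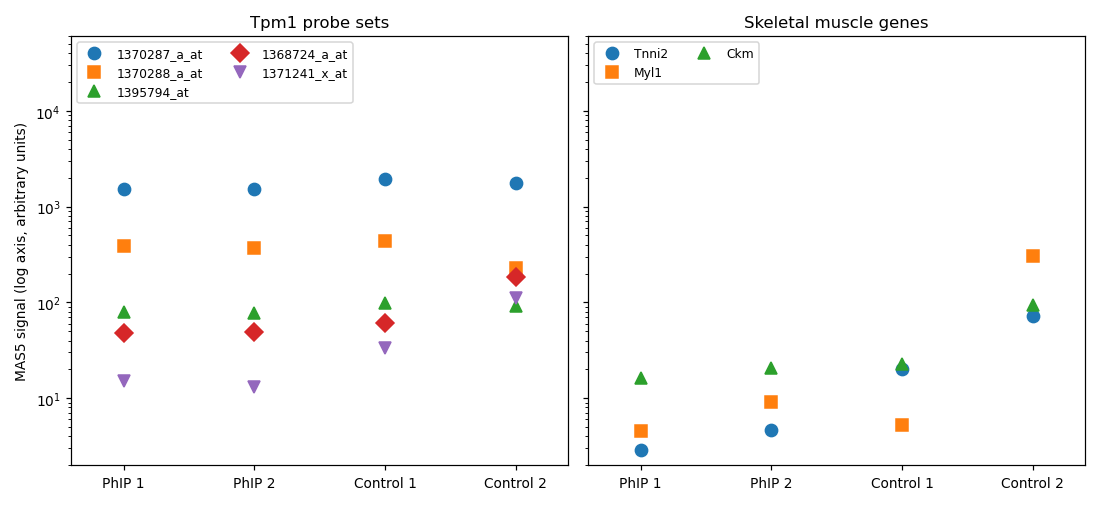
MAS5 signal (log axis, arbitrary units) on each of the 4 arrays for the 5 tested Tpm1 probe sets (left) and for 3 skeletal muscle genes (right); each symbol is 1 array. Signals of 1368724_a_at and 1371241_x_at reach 183 and 110 on control 2, the array on which Myl1 reaches 306, Ckm 93.9 and Tnni2 71.4, while the brightest Tpm1 probe set stays between 1508 and 1942.

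Myosin subunits supply the motor of contraction. Myl9, the regulatory light chain whose phosphorylation starts contraction, had signals of 494 and 400 in PhIP, against 780 and 818 in control. The log2 fold change was −0.83 ± 0.12 (limma adjusted p = 0.0605). Myh11, the smooth muscle myosin heavy chain and a marker of differentiated smooth muscle cells, had 728 and 700 in PhIP, against 1182 and 983 in control. Its log2 fold change was −0.59 ± 0.11 (limma adjusted p = 0.0989), smaller than that of Myl9. Both PhIP values lay well under the lower control value. A second Myh11 probe set, 1381219_at, was near the bottom of the scale (4.0 and 16.4 in PhIP, against 17.3 and 8.5 in control) and was not tested. With the mean of both probe sets in place of the brighter one, Myh11 stood at −0.41 (limma unadjusted p = 0.0700).

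The regulators bind actin and tune its interaction with myosin. Cnn1, calponin, which inhibits the myosin ATPase, had signals of 241 and 270 in PhIP, against 409 and 386 in control (log2 fold change −0.62 ± 0.12, limma adjusted p = 0.104). Tagln, which encodes the actin-bundling protein transgelin (SM22), had 909 and 1076 in PhIP, against 1372 and 1374 in control. Its control pools were almost identical and its PhIP pools were further apart, with a log2 fold change of −0.47 ± 0.10 (limma adjusted p = 0.131). With scaling to the hybridization controls Tagln stood at −0.24 (limma unadjusted p = 0.0765). Smtn, smoothelin, a protein of contractile smooth muscle cells, was the least clear gene, at 40.7 and 54.3 in PhIP, against 57.2 and 65.6 in control. The log2 fold change was −0.32 ± 0.20 (limma unadjusted p = 0.146), and the gap between PhIP 2 and control 1 was smaller than the spread within either group. Its dimmer, untested probe set 1396885_at had 8.3 and 1.4 in PhIP, against 16.7 and 12.0 in control. With the mean of both probe sets, Smtn stood at −0.53 (limma unadjusted p = 0.0248). The brighter probe set alone stood at −0.15 without PhIP 1 and at −0.49 without PhIP 2.

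Des encodes desmin, the intermediate filament that links contractile units to each other and to the membrane in all muscle types. It had signals of 133 and 148 in PhIP, against 253 and 242 in control. The log2 fold change was −0.78 ± 0.13 (limma unadjusted p = 0.000393, adjusted p = 0.0832), and the groups were separated by several times the spread within them. Without control 2, Des stood at −0.81 and Tpm2 at −0.84.

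**Figure D3:**
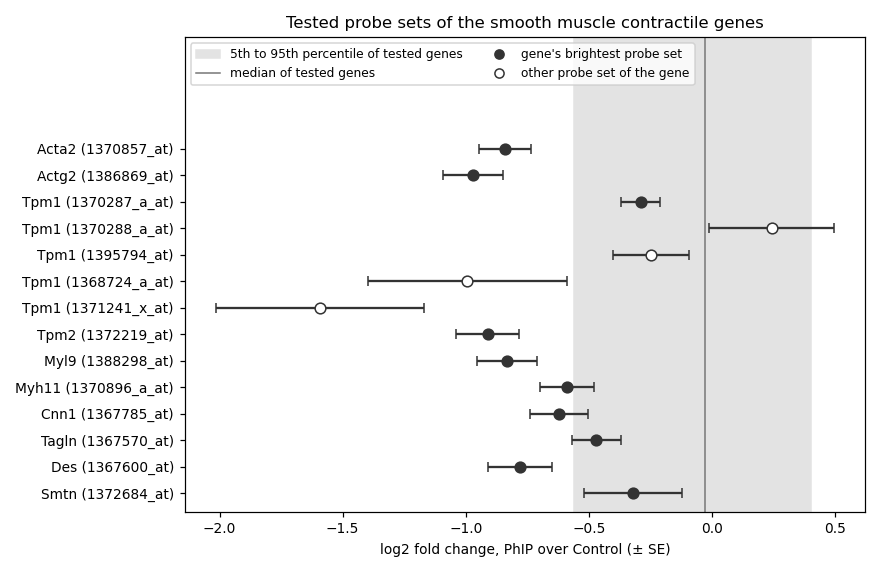
Log2 fold change of PhIP over control (horizontal axis, ± SE) for the 14 tested probe sets of the 10 genes; filled circles are each gene's brightest probe set, open circles its other probe sets, and the grey band spans the 5th to 95th percentile of 10507 tested genes (−0.56 to 0.40). Actg2, Tpm2, Acta2, Myl9, Des, Cnn1 and Myh11 lie left of the band, while Tagln, Smtn and the brightest Tpm1 probe set lie within it.

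Within PhIP, the 10 genes did not share 1 order of the pools. Acta2, Tpm1, Tpm2, Myl9 and Myh11 were lower on PhIP 2, and Actg2, Cnn1, Tagln, Des and Smtn were lower on PhIP 1. Averaged over the 10 genes, the log2 value relative to each gene's mean was −0.34 and −0.32 on the PhIP arrays, against 0.34 and 0.32 on the control arrays. The pools of a group lay close together in this average, although single genes differed between them. Tpm2 and Smtn had the widest spread between PhIP pools after log2 transformation (SD 0.23 and 0.24), and Myh11 and Actg2 between control pools (SD 0.19 and 0.18).

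**Figure D4:**
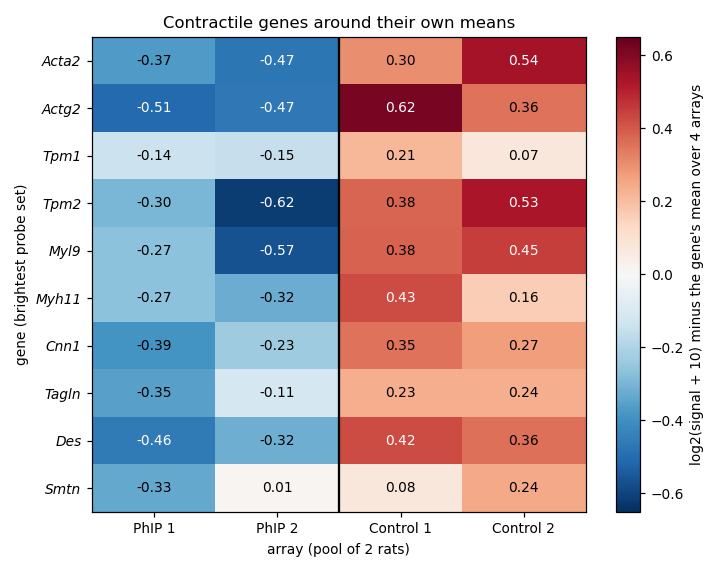
Log2(signal + 10) of each contractile gene minus its own mean over the 4 arrays (colour and printed value), for the 10 genes (rows) and the PhIP and control arrays (columns). All PhIP cells are below 0 except Smtn on PhIP 2 (0.01), and all control cells are above 0, the palest being Tpm1 on control 2 (0.07).

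Contractile forms were set beside their non-muscle paralogues, which drive shape and movement in most cell types. Of 12 tested paralogues, at an unadjusted limma p under 0.05, 1 was lower, 1 was higher and 10 did not pass. Their median log2 fold change was −0.09, and it was positive with median-centred arrays (0.05) and with scaling to the hybridization controls (0.14). Leaving out 1 array gave medians of −0.09 to −0.05. With all arrays, 7.61% of all tested probe sets were lower and 5.36% higher at an unadjusted limma p under 0.05. Gamma-actin, encoded by Actg1, had 3244 and 3134 in PhIP, against 3343 and 2641 in control (log2 fold change 0.10 ± 0.11), although a dim second probe set stood at −0.54 ± 0.20. The non-muscle myosin heavy chain gene Myh9 was higher, with 998 and 943 in PhIP, against 793 and 730 in control (0.35 ± 0.09, limma adjusted p = 0.206). Myl12a, a non-muscle light chain gene, was lower (−0.33 ± 0.12, limma adjusted p = 0.309), and its close paralogue Myl12b stood at 0.12 ± 0.10. The tropomyosin genes Tpm3 and Tpm4 stood at −0.12 ± 0.09 and −0.06 ± 0.13 in their brightest probe sets. The 9 tested probe sets of Tpm3 ranged from −0.25 to 0.53, and 1370340_x_at among them was higher in PhIP (0.43 ± 0.16, limma unadjusted p = 0.0317, adjusted p = 0.343). A second Tpm4 probe set stood at 0.03 ± 0.37. The transgelin paralogue Tagln2 stood at 0.01 ± 0.09. The calponin paralogues Cnn2 and Cnn3 stood at −0.38 ± 0.19 and 0.06 ± 0.13, and vimentin, Vim, at −0.24 ± 0.13. Myh10 and Myh14 stood at −0.39 ± 0.20 and −0.12 ± 0.18. No test compared the contractile genes with their paralogues as groups.

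Among 25 other tested genes of the smooth muscle cell, 8 were lower and 1 was higher at an unadjusted limma p under 0.05, with a median of −0.24, and 0 passed the adjusted p. Of all tested probe sets, 7.61% were lower and 5.36% higher at that unadjusted p. Leaving out 1 array gave medians of −0.28 to −0.17. Of the 25 genes, 5 were lower without the eBayes trend and 4 with median-centred arrays. With scaling to the hybridization controls 3 were lower, with a median of −0.03. In these 3 settings, 8.29%, 3.46% and 2.42% of all tested probe sets were lower. Cald1, caldesmon, had 174 and 189 in PhIP, against 340 and 290 in control (log2 fold change −0.76 ± 0.13, limma adjusted p = 0.0929), with −0.21 ± 0.18 in another probe set. The actin crosslinker filamin A, Flna, had 505 and 492 in PhIP, against 765 and 754 in control (−0.60 ± 0.09, limma adjusted p = 0.0729). Lmod1, leiomodin, which nucleates actin filaments, was dim and stood at −0.80 ± 0.20. The exception was Hspb6, a small heat shock protein that relaxes smooth muscle when phosphorylated, with 550 and 597 in PhIP, against 404 and 336 in control (0.62 ± 0.12, limma adjusted p = 0.115). Mylk, the kinase of the myosin light chain, had 3069 and 2965 in PhIP, against 3045 and 3035 in control (−0.01 ± 0.06), and 0.62 ± 0.38 in a dimmer probe set. It was named after its values were seen, and its symbol also covers a non-muscle form.

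Of 14 tested transcription factors and cofactors of the serum response factor programme, 3 were lower and 0 higher at an unadjusted limma p under 0.05, with a median of −0.17. Of all tested probe sets, 7.61% were lower and 5.36% higher at that p, and 0 of the 14 genes passed the adjusted p. With scaling to the hybridization controls 1 of the 14 was lower, with a median of 0.01, against 2.42% of all tested probe sets. Leaving out 1 array gave medians of −0.18 to −0.13. Fhl2, a LIM-domain cofactor, had 192 and 186 in PhIP, against 414 and 303 in control (−0.87 ± 0.16, limma adjusted p = 0.0977), and a second probe set stood at −0.64 ± 0.21. Tead1, a TEA-domain factor, stood at −0.49 ± 0.14, with −0.04 ± 0.20 in a dimmer probe set. Fhl1, related to Fhl2, had 473 and 456 in PhIP, against 762 and 516 in control (−0.43 ± 0.17), with control 1 apart from the other arrays, and −0.16 ± 0.35 in a dimmer probe set. Srf and Myocd, named after their values were seen, overlapped between groups, at −0.22 ± 0.16 and −0.39 ± 0.29.

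Some markers of other cell types also differed between PhIP and control, and their part in the result was not tested. The counts below are at an unadjusted limma p under 0.05, where 7.61% of all tested probe sets were lower and 5.36% higher. Of 12 tested skeletal muscle genes, 3 were lower (Acta1, Tnnc2 and Tnni2) and 0 were higher. Tnni2 had 2.9 and 4.6 in PhIP, against 20.2 and 71.4 in control. Only its control signals made it bright enough to test, so the filter favoured its place in this count. The summed signal of the 19 measured skeletal muscle genes was 1822 to 1949 in PhIP, against 2624 to 3372 in control. Of this sum, the probe set standing for Myh1 gave 1274 to 1331 in PhIP and 1349 to 1566 in control. Acta1 gave 282 to 373 in PhIP and 658 to 691 in control. Whether its probe set separates it from the smooth muscle actins was not tested. The median log2 fold change of the 12 tested skeletal muscle genes, −0.95, became −1.29 without control 1 and −0.17 without control 2. That of the contractile genes was −0.66 without control 1 and −0.72 without control 2. Among the 12, Tnni2, Myl1, Myh4 and Mybpc2 were bright enough to test only through their control signals, so their inclusion favours a low median. Over all 19 measured skeletal muscle genes the median was −0.76. No skeletal marker was at 0, and Myh4, a fast myosin, was lowest at 0.5 on control 1. Of 7 measured cardiac muscle genes, only Tnnt2, cardiac troponin T, was bright enough to test. It was lower, with 26.6 and 52.1 in PhIP, against 83.5 and 88.2 in control (−1.01 ± 0.26, limma unadjusted p = 0.00492, adjusted p = 0.186), and stood at −0.63 without PhIP 1 and −0.97 without control 2. The cardiac myosin heavy chains Myh6 and Myh7 were at most 9.7 and 7.1. Of 10 fibroblast genes, 8 were lower and 0 higher, with a median of −0.53 (−0.64 to −0.47 with 1 array left out). Their summed signals were 7763 to 7847 in PhIP, against 10269 to 12953 in control. Col1a2, a collagen chain, had the lowest p (−0.88 ± 0.12, limma adjusted p = 0.0534). Of 7 pericyte and 7 endothelial genes, 2 each were lower and 0 higher, with medians of −0.35 and −0.40. With 1 array left out, these medians were −0.54 to −0.27 for pericyte genes and −0.44 to −0.29 for endothelial genes. Cspg4, among the lower pericyte genes, had 7.8 and 12.8 in PhIP, against 21.5 and 28.3 in control. Only its control signals made it bright enough to test, so the filter favoured its place in the count. Of 5 basal epithelial genes, Krt14 was lower (−0.41 ± 0.16) and 0 were higher, with a median of −0.27 (−0.34 to −0.12 with 1 array left out). With scaling to the hybridization controls, 5 fibroblast, 1 pericyte, 1 endothelial and 0 basal epithelial genes were lower, and 1 pericyte gene was higher. In that setting 2.42% of all tested probe sets were lower. Of 8 luminal epithelial genes, 5 were higher (3 without the eBayes trend) and 0 lower, with a median of 0.23 (0.22 to 0.25 with 1 array left out). All 8 were higher with scaling to the hybridization controls (median 0.46), and 4 were with quantile normalization (median 0.19). The former scaling moved the median of all tested probe sets to 0.18, and the share of them higher under it was not computed. The summed signals of these luminal genes were 10087 to 10135 in PhIP, against 8702 to 8711 in control. Krt19, a luminal keratin, was highest among them, at 0.63 ± 0.12. Differences between these lists and the contractile genes were not tested.

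**Figure D5:**
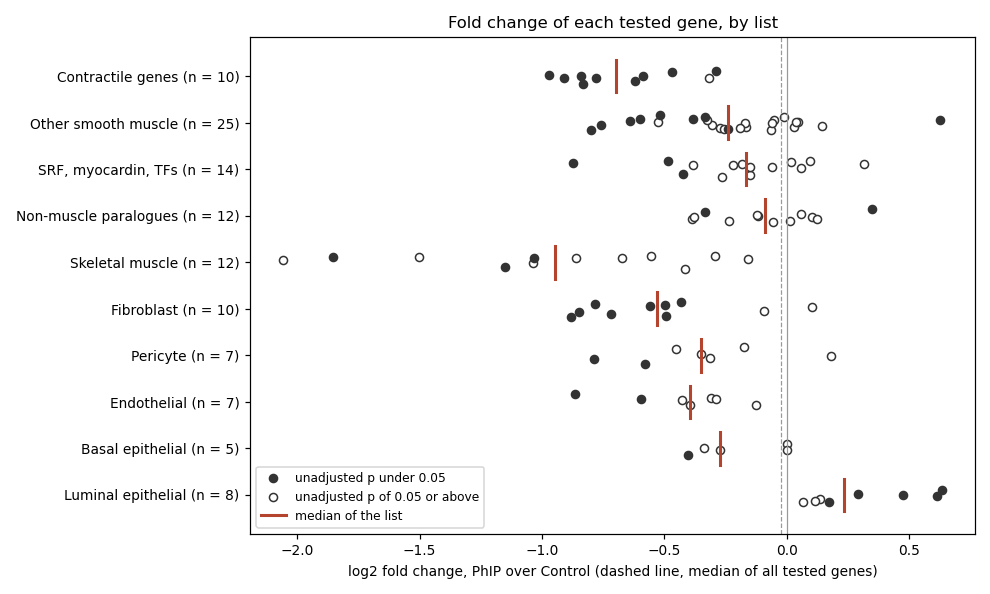
Log2 fold change of PhIP over control (horizontal axis) for each tested gene, 1 row per list; filled points have an unadjusted limma p under 0.05, open points do not, red bars are list medians and the dashed line is the median of all tested genes. The contractile genes (median −0.70), skeletal muscle (−0.95) and fibroblast (−0.53) rows lie left of the non-muscle paralogues (−0.09), and the luminal epithelial row lies right of 0 (0.23). Some genes in the skeletal muscle row were bright enough to test only through control, and over all 19 measured genes its median was −0.76.

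The genes whose profile over the 4 arrays was closest to the mean contractile profile were found by Euclidean distance between log2 values centred on each gene's mean, among 10497 other genes. They were Prkcb (distance 0.031), Clic3, Cyp20a1, Scin, Gja4, Cplane1, Gbe1 and Tnfaip2 (0.063). The contractile genes themselves lay between 0.12 (Cnn1) and 0.43 (Smtn) from that mean. Clic3, an intracellular chloride channel gene, had 178 and 181 in PhIP, against 302 and 286 in control. Gbe1, the glycogen branching enzyme, had 154 and 150 in PhIP, against 258 and 243 in control. Scin, Gja4, Cplane1 and Tnfaip2 were dim, with signals of 11.8 to 16.8 in PhIP, against 22.6 to 30.8 in control. Of these, Scin, Cplane1 and Tnfaip2 were bright enough to be candidates only through their control signals. Among dim genes the filter thus favoured profiles that were lower in PhIP. With 4 arrays and this many candidates, closeness describes these arrays only.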

How the data were processed

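Per the labels' protocols, 5 µg of total RNA per sample went into biotin-labelled cRNA for Affymetrix arrays. The deposited values are MAS5 intensities on a linear scale, per the submitters' processing notes, which give no version. The authors' scaling left every array with the same trimmed mean. The scaling target and detection calls were not used here. Precision is limited by having 4 arrays.

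The 57 control probe sets were left out. Names came from the platform annotation, with 20764 of 20832 single symbols matched to GRCr8 by Entrez identifier. Values were analysed as log2(signal + 10). The 18625 probe sets above the 40th percentile of mean log2 were tested, 14 of the 19 probe sets of the contractile genes among them. PhIP was compared with control by limma 3.58.1 in R 4.3.3 (lmFit, eBayes with an intensity trend, two-sided, Benjamini-Hochberg over all tested probe sets), and the steps were tested on simulated data. Nothing states how the rats were assigned to pools. The p-values and SE measure the spread between pools, but not that of each probe set alone. Its own spread (2 degrees of freedom) was drawn towards that of probe sets of like intensity (5.674 degrees of freedom). Named genes were all 10 members, all non-muscle paralogues, up to 4 genes a list with the lowest unadjusted p under 0.05, and the 8 nearest profiles. One gene list is not reported here. The members and lists were chosen with earlier results of these data known. Alternatives were other constants, filters, normalizations, moderation settings, a block for the replicate number, dropping each array in turn and averaging a gene's probe sets. Plots used matplotlib 3.10.9.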

Additional observations from a re-analysis of the deposited data

How the results depend on the processing

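All 10 contractile genes kept a negative log2 fold change in their brightest probe set under each of the 15 alternatives to the fit. Across 209 recomputed values of the tested probe sets, 1 changed sign, Tpm1 1370288_a_at without control 2 (−0.21, in a range of −0.21 to 0.70 when 1 array was left out). The median of the 10 genes, −0.70 as reported, was −0.72 with a constant of 2, −0.67 with 20, −0.72 under cyclic loess and under quantile normalization, −0.56 with arrays centred on their medians and −0.48 with arrays scaled to the hybridization controls. The last 2 scalings moved the median of all probe sets to 0.11 and 0.18, so that the contractile genes lay 0.67 and 0.66 below it, against 0.67 as reported. Leaving out 1 array gave −0.72 to −0.66. Of the 10 genes, the number past an adjusted p of 0.05, 0 as reported, was 2 with a constant of 20, 3 with the filter at the 60th percentile, 4 with robust eBayes and 4 with averaged probe sets. Leaving out 1 array gave 0 to 9, with 8 without control 1, 9 without control 2 and 0 without either PhIP array. A count of 0 could only stay or rise. Among the tested probe sets of the 10 genes, the smallest limma adjusted p was 0.0517 as reported. It was 0.0328 with robust eBayes, but 0.201 with no filter and 0.270 without the eBayes trend. Over all probe sets, 5 calls became 22, 44 and 52 under the same constant, filter and robust eBayes. They became 164 with the hybridization control scaling, 3 under cyclic loess, and 0 under quantile normalization, with no filter, with median-centred arrays or without the eBayes trend. Leaving out 1 array gave 0 to 2334 calls. With the replicate number as a block, 35 probe sets and 2 contractile genes passed. Nothing in the labels pairs equal numbers, whose deviations correlated at −0.056 over probe sets. The number of contractile genes lower at an unadjusted p under 0.05, 9 as reported, was 7 to 9 under all of these. The cause of these shifts was not tested.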
